A study of Sus scrofa with 2 samples.

Results

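The genes described here are 57 genes whose products build or guard the apparatus of chromosome segregation: the kinetochore, the spindle checkpoint, the mitotic kinases, cohesin and condensin. They were chosen by name, with earlier results of these data known. Of them, 56 were found among the 16491 protein-coding pig genes with a unique symbol. PDS5A was not. The factor profiled was ZBTB16, also called PLZF, which has zinc fingers and is made in undifferentiated spermatogonia. Its sites were mapped by CUT&Tag, in which a transposase tethered by an antibody cuts and tags the DNA around a chromatin protein. The single group held 2 libraries, replicate 1 and replicate 2, of wild-type immature spermatogonia from pig testis, with 100000 cells each. There was no treatment or comparison genotype. The labels give no age, no number of animals and no antibody name, and they do not say whether the libraries came from separate animals or cultures. A gene is called bound below when a peak of the authors' promoter class was assigned to it in both libraries. That class holds peaks that span the transcription start site (TSS) or lie up to 3 kb upstream of it. An IgG library described in the protocols was not analysed here, so no unspecific signal was subtracted in the steps described below.

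At every division the kinetochore assembles on centromeric chromatin marked by the histone variant CENPA. Its inner layer holds the centromere, its outer layer grips spindle microtubules, and unattached kinetochores switch on the spindle checkpoint, which delays anaphase. Cohesin is a ring built on a pair of SMC proteins that holds sister chromatids together until separase cuts it, and condensin is a related ring that compacts mitotic chromosomes. Spermatogonia divide by mitosis, both to renew themselves and to produce cells that enter meiosis.

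Of the 57 genes, 23 (40.4%) were bound, against 20.8% of the 16491 protein-coding genes. Replicate 1 had a promoter peak at 35 of them (61.4%) against 32.8% of all genes, and replicate 2 at 24 (42.1%) against 24.9%. Among the roles with at least 6 genes, the inner kinetochore had the highest share, 8 of 12 (66.7%), and condensin the lowest, 1 of 8 (12.5%). Between these lay the checkpoint genes with 3 of 6 (50%), the outer kinetochore and the group of passenger complex and kinases with 4 of 12 and 2 of 6 (33.3% each), and cohesin with 3 of 11 (27.3%). The remaining pair, CDCA2 and CDCA3, was bound in full. These groups hold 2 to 12 genes, and no difference between them was tested. Because the set was chosen with earlier results known, its share beside that of all genes is a description only. A further 12 genes had a promoter peak in replicate 1 only and 1 in replicate 2 only, beside 1974 and 676 of the 16491 genes. Another 2 had peaks of other classes only, a count for which no share over all genes is given here, so it is a description. The remaining 19 of the 57 had no assigned peak, beside 8124 of the 16491 genes (49.3%).

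**Figure D1:**
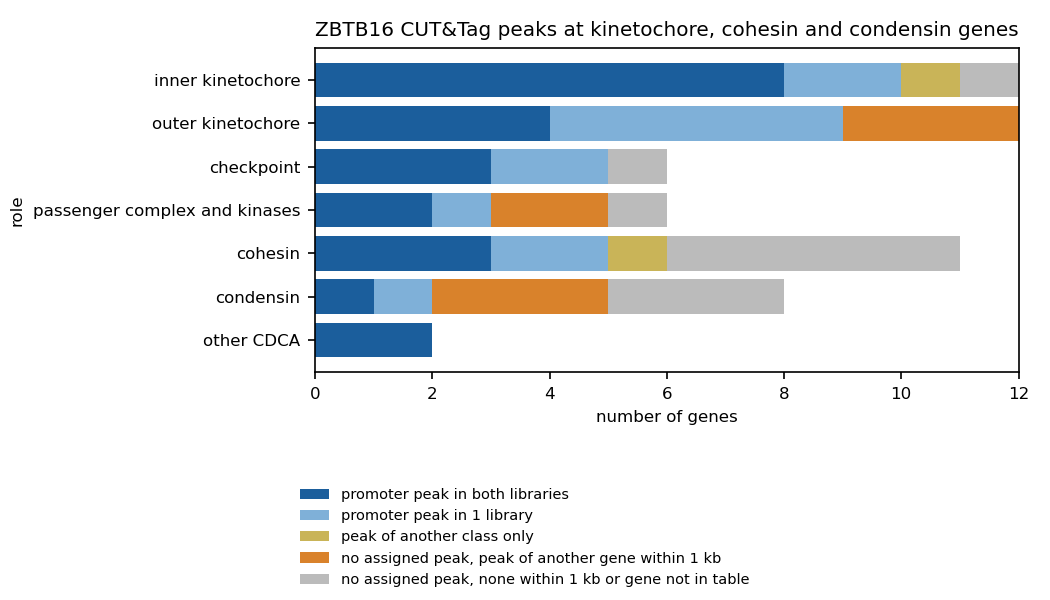
Number of genes of each role (x axis, count) by the peaks found at them, with roles on the y axis and colours for the kind of peak. The inner kinetochore has 8 of 12 genes with a promoter peak in both libraries, while condensin has 1 of 8 and a further 3 with no assigned peak but a peak of another gene within 1 kb.

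Ranked by the lower of their 2 folds, the strongest promoter peaks of the set lay at CDCA2 and CDCA3. CDCA2 (Repo-Man) targets protein phosphatase 1 to chromatin as cells leave mitosis. Its peak on chromosome 14 (9517636 to 9518466, Sscrofa11.1) reached 11.7-fold enrichment in replicate 1 and 11.2-fold in replicate 2. Each fold is the authors' value over a background, and which library that background came from was not established here. The CDCA2 peak rested on 79 fragments at the summit in replicate 1 (exact 95% Poisson interval 62.5 to 98.5) and on 53 in replicate 2 (39.7 to 69.3). It ranked 12 among 6130 genes with a promoter peak in replicate 1 and 7 among 4623 in replicate 2. Intervals on fragments cover counting error only.

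CDCA3 codes for an F-box-like protein that promotes the degradation of a mitosis inhibitor. Its peak on chromosome 5 (63858223 to 63859531) had folds of 8.19 and 9.25, from 70 (54.6 to 88.4) and 62 fragments (47.5 to 79.5). The peak was 1309 bp wide in replicate 1, and its summit lay 390 bp upstream of the TSS in both libraries. Another gene, USP5, has an end 70 bp from the CDCA3 TSS. The local background at CDCA3 was 7.66 and 5.81 fragments, above the 95th percentile over all bound genes of 5.43 and 4.08. At CDCA2 it was 5.83 and 3.82, above that percentile in replicate 1 only. The part of this local background in the 2 peaks was not tested.

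The inner kinetochore held 8 bound genes, from the centromeric histone outward. CENPA itself had a peak on chromosome 3 (112272545 to 112273167) with folds of 6.81 and 5.49, from 22 and 14 fragments. CENPL and CENPN, which form a subcomplex that contacts the CENPA nucleosome, were both bound. CENPN (chromosome 6, 7254590 to 7255189) had folds of 7.62 and 8.76 from 33 and 32 fragments, and in replicate 2 only CDCA2 and CDCA3 had a higher fold among these 57 genes. CENPL (chromosome 9, 116109551 to 116110229) had 7.52 and 6.35 from 26 and 16 fragments. The fragment intervals of CENPL and CENPN overlapped in each library, so their order is not resolved.

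Of the subcomplex of CENP-O, P, Q and U, which takes part in kinetochore-microtubule attachment, 3 of 4 genes were bound. CENPU (chromosome 15, 45850947 to 45851505) had folds of 9.50 and 6.34 from 34 and 17 fragments, and CENPO (chromosome 3, 113979094 to 113979789) had 8.18 and 5.997 from 31 and 18. CENPP was lower, with folds of 5.10 and 3.79 from 15 and 9 fragments. CENPQ, the remaining gene, had a peak in replicate 1 only (4.67-fold, 12 fragments). Of CENP-H, I and K, CENPH had folds of 6.28 and 4.9997 (17 and 10 fragments) and CENPK 4.998 and 5.25 (15 and 14 fragments), while CENPI, on the X chromosome, had no assigned peak and none within 1 kb of its ends.

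CENPC and CENPT, the proteins that link the centromere to the outer kinetochore, were not among the bound genes. CENPC had a promoter peak in replicate 1 only, at 5.54-fold from 18 fragments. CENPT had an exonic peak in replicate 1 only, 522 bp downstream of the TSS, at 4.27-fold from 11 fragments. Of all genes with 16 to 20 fragments at their strongest replicate 1 promoter peak, as CENPC has, 61.5% also had a promoter peak in replicate 2.

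In the outer kinetochore 4 of 12 genes were bound, and they are given here by complex. None of the 4 genes of the NDC80 complex, the main microtubule coupler, was bound. SPC24 (3.70-fold, 13 fragments) and SPC25 (5.22-fold, 12 fragments) had a promoter peak in replicate 1 only. NDC80 and NUF2 had no assigned peak, although peaks of neighbouring genes lay at their ends, as described below. Of all genes with 10 to 14 fragments at their strongest replicate 1 promoter peak, as SPC25 has, 34.3% also had one in replicate 2.

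The MIS12 complex joins the inner kinetochore to NDC80, and 2 of its 4 genes were bound. PMF1 (chromosome 4, 93836247 to 93836895) had folds of 7.29 and 7.35 from 28 and 22 fragments. DSN1 (chromosome 17, 40016958 to 40017820) had 5.35 and 3.61 from 23 and 10 fragments, the lowest replicate 2 fold of the bound genes. NSL1 had a peak in replicate 1 only (5.28-fold, 12 fragments) whose nearer edge lay 1206 bp upstream of the TSS, and MIS12 had no assigned peak.

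ZW10 and KNTC1, subunits of the complex that brings checkpoint proteins and dynein to kinetochores, were both bound. KNTC1 (chromosome 14, 30241601 to 30242402) had folds of 7.32 and 6.91 from 35 and 27 fragments. ZW10 (chromosome 9, 41399814 to 41400372) had 7.52 and 5.69 from 25 and 15 fragments. Counted with the checkpoint genes instead, they would make that group 5 of 8 and leave the outer kinetochore with 2 of 10, a grouping tried after the values were seen.

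CENPE, a kinesin motor of the kinetochore, and CENPF, a large coiled-coil protein of its outer surface, had promoter peaks in replicate 1 only. CENPE was weak there, at 3.64-fold from 9 fragments. CENPF was not, at 7.43-fold from 23 fragments, and no replicate 2 peak overlapped it. Of all genes with 21 to 25 fragments in replicate 1, 77.7% had a promoter peak in replicate 2. CENPF also had 2 distal peaks in replicate 1, 7.50 and 43.4 kb upstream, of 10 and 13 fragments.

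Among the checkpoint genes, BUB3, MAD2L1 and TTK were bound. BUB3, the adaptor that docks BUB1 and BUB1B onto kinetochores, had a peak on chromosome 14 (132702866 to 132703677) with folds of 6.22 and 8.04 and 26 fragments in each library. MAD2L1, the core of the inhibitor of the anaphase-promoting complex, had 6.15 and 6.74 (chromosome 8, 103926922 to 103927698) from 22 and 20 fragments. TTK, the kinase (MPS1) that starts checkpoint signalling, was lower, at 5.07 and 4.65 from 14 and 10 fragments. BUB3 and MAD2L1 had the higher fold in replicate 2, TTK in replicate 1.

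The other checkpoint genes had no promoter peak in replicate 2. MAD1L1, which recruits MAD2L1 to kinetochores, had a replicate 1 peak of 6.84-fold from 23 fragments, a higher fold there than BUB3, MAD2L1 or TTK. BUB1B (BUBR1) had 5.84-fold from 13 fragments in replicate 1, with the nearer edge of the peak 89 bp upstream of the TSS. BUB1 had no assigned peak, and the nearest peak of either library was 68.6 kb from its ends.

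Of the 4 genes of the chromosomal passenger complex, which corrects faulty attachments, only the scaffold INCENP was bound. Its peak on chromosome 2 (9445363 to 9446333) had folds of 5.87 and 6.39 from 26 and 25 fragments. BIRC5 (survivin) had a replicate 1 peak of 4.74-fold from 12 fragments, and AURKB, the kinase of the complex, and CDCA8 (borealin) had no assigned peak. Outside that complex stand the kinases AURKA, which acts at spindle poles, and PLK1, which acts at many steps of mitosis. AURKA (chromosome 17, 56972051 to 56972669) had folds of 9.56 and 7.07 from 40 (28.6 to 54.5) and 19 fragments (11.4 to 29.7), whereas PLK1 had no assigned peak, and the nearest peak lay 35.7 kb from it.

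**Figure D2:**
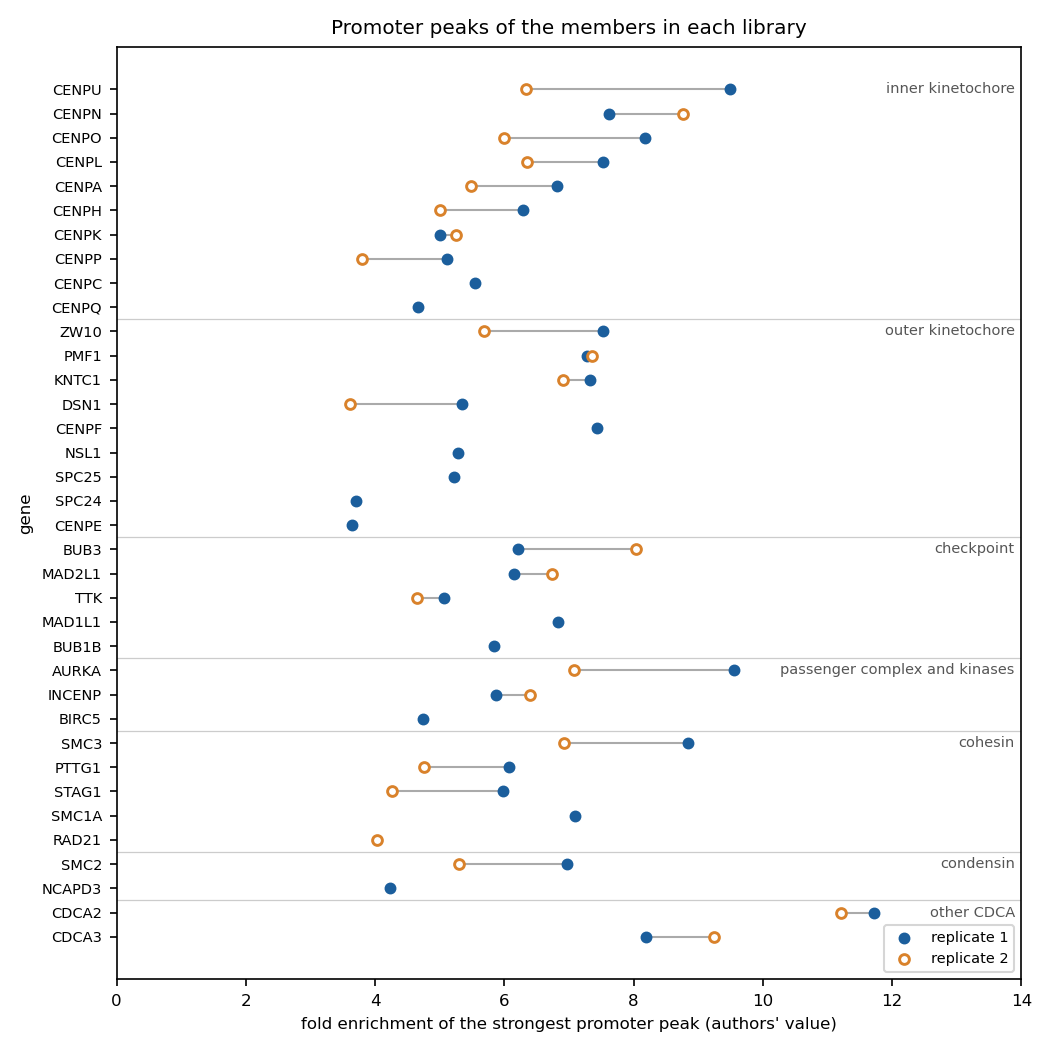
Fold enrichment of the strongest promoter peak (x axis, the authors' value per library) for each of the genes with a promoter peak (y axis), ordered by role. Filled points are replicate 1 and open points replicate 2, and a line joins the 2 libraries where both had a peak. CDCA2 lies at 11.7 and 11.2, and 12 genes have a replicate 1 point only.

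Cohesin genes were bound at 3 of 11. SMC3, one of the SMC pair of the ring, had the strongest peak among cohesin and condensin genes, on chromosome 14 (120969078 to 120969993), with folds of 8.85 and 6.93 from 43 (31.1 to 57.9) and 27 fragments (17.8 to 39.3). STAG1, an accessory subunit, had 5.98 and 4.25 from 24 and 13 fragments. Its peak lay at an internal start of the gene, 113 kb inside its higher-coordinate end. PTTG1 (securin), the inhibitor of separase, had 6.07 and 4.76 from 15 and 12 fragments.

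The partner of SMC3, SMC1A, had a promoter peak of 7.09-fold from 22 fragments in replicate 1. A replicate 2 peak of 4.40-fold from 13 fragments overlapped it, but the authors assigned that peak to RIBC1, whose end lies 81 bp from the SMC1A TSS. RAD21, the ring's cleavable subunit, was the only member with a promoter peak in replicate 2 alone (4.03-fold, 12 fragments). NIPBL, the cohesin loader, had a peak in both libraries that began 207 and 295 bp downstream of the TSS and was therefore listed as 5′ UTR, with folds of 4.08 and 4.80 from 16 and 15 fragments.

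STAG2, PDS5B, CDCA5 (sororin, which protects cohesion) and ESPL1 (separase) had no assigned peak. No peak of any gene lay within 1 kb of the ends of these 4 genes. The peak nearest to a gene end lay 8.55 kb from that of CDCA5, 10.2 kb for ESPL1, 17.0 kb for PDS5B and 76.2 kb for STAG2.

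SMC2 was the only condensin gene bound, with folds of 6.96 and 5.30 from 24 and 16 fragments (chromosome 1, 245409491 to 245410133). Its partner in the ring, SMC4, had no assigned peak. Of the 3 subunits particular to condensin I by their known roles, NCAPD2, NCAPG and NCAPH, none was bound, and of the 3 of condensin II, NCAPD3, NCAPG2 and NCAPH2, none was either. NCAPD3 had a promoter peak in replicate 1 only, at 4.22-fold from 14 fragments. Among the 4 SMC genes, 1 of each pair was bound, SMC3 for cohesin and SMC2 for condensin.

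Each peak was assigned to 1 gene, so a peak between neighbouring genes is counted for one of them only. Of the 19 members with no assigned peak, 6 had, within 1 kb of either gene end, a peak assigned to another gene in both libraries. A further 2 had one in 1 library. No such share is given here for the 8124 genes with no assigned peak, so these counts are descriptions. The strongest was at NCAPD2, where a peak assigned to MRPL51, 8 bp away, overlapped the end of NCAPD2 with folds of 7.31 and 5.86 from 32 and 23 fragments. MIS12 had a peak of DERL2 across its end (6.97 and 5.81, from 30 and 22 fragments), and CDCA8 had a peak of C6H1orf109 beside it (5.72 and 5.57, from 17 and 14 fragments).

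NCAPH2 had a peak of LMF2 at its end (4.72 and 3.74), and NDC80 a 5′ UTR peak of METTL4 at 136 and 73 bp (4.52 and 5.06). At AURKB the nearby peaks belonged to transfer RNA genes, 854 and 552 bp from its end, with folds of 3.38 and 3.26. NUF2 and SMC4 had such a peak in replicate 1 only, at a noncoding RNA gene and at IFT80. The gene table gives no strand, so for these genes it is not known here which end holds the TSS.

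Counted by any peak within 1 kb of either gene end in both libraries, 31 of the 57 genes (54.4%) had one, against 29% of all genes. Condensin then had 3 of 8, cohesin 5 of 11, the passenger complex and kinases 4 of 6 and the outer kinetochore 6 of 12, while the inner kinetochore stayed at 8 and the checkpoint at 3. The order of roles is narrower by this measure, and the inner kinetochore and the kinases then had the same share. PDS5A, which has no position in the gene table, could not be searched and is counted as having no such peak. STAG1 is counted through a peak at a gene end, not through its promoter peak, which lies 113 kb inside the gene.

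Close neighbours were also common at the bound genes. Of the 23, 11 (47.8%) had the end of another gene within 1 kb of the TSS, against 24.8% of the 3438 bound protein-coding genes. Among them were CENPO with PTRHD1 (27 bp), CENPP with NOL8 (25 bp), CENPN with CMC2 (40 bp), AURKA with CSTF1 (69 bp), KNTC1 with RSRC2 (75 bp) and CDCA2 with KCTD9 (77 bp). PRIMPOL has an end at the very position of the CENPU TSS. Which gene of such a pair the signal belongs to cannot be told apart from peak positions.

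The 2 libraries gave similar positions for the bound genes. All 23 pairs of strongest promoter peaks overlapped, as did the pairs at 3751 of the 3819 genes used in the fragment test below. The median distance between the 2 summits was 58 bp (0 to 280 bp), against 93 bp over all bound genes, and 17 of 23 (73.9%) were within 100 bp, against 52.2%. At AURKA, CENPU and CDCA3 the summits coincided, and STAG1 had the largest gap. Measured from the TSS assigned in replicate 1, the summit was within 200 bp at 17 genes (73.9%) in replicate 1 and at 19 (82.6%) in replicate 2. Over all bound genes these shares were 63.8% and 61.9%. The summit lay upstream at 14 and 15 of the 23 genes, beside 2063 and 2035 of all 3438 bound genes. The peak spanned the TSS at all 23 genes in replicate 1 (86.9% of all bound genes) and at 21 in replicate 2 (84.2%), the exceptions being DSN1 and STAG1.

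**Figure D3:**
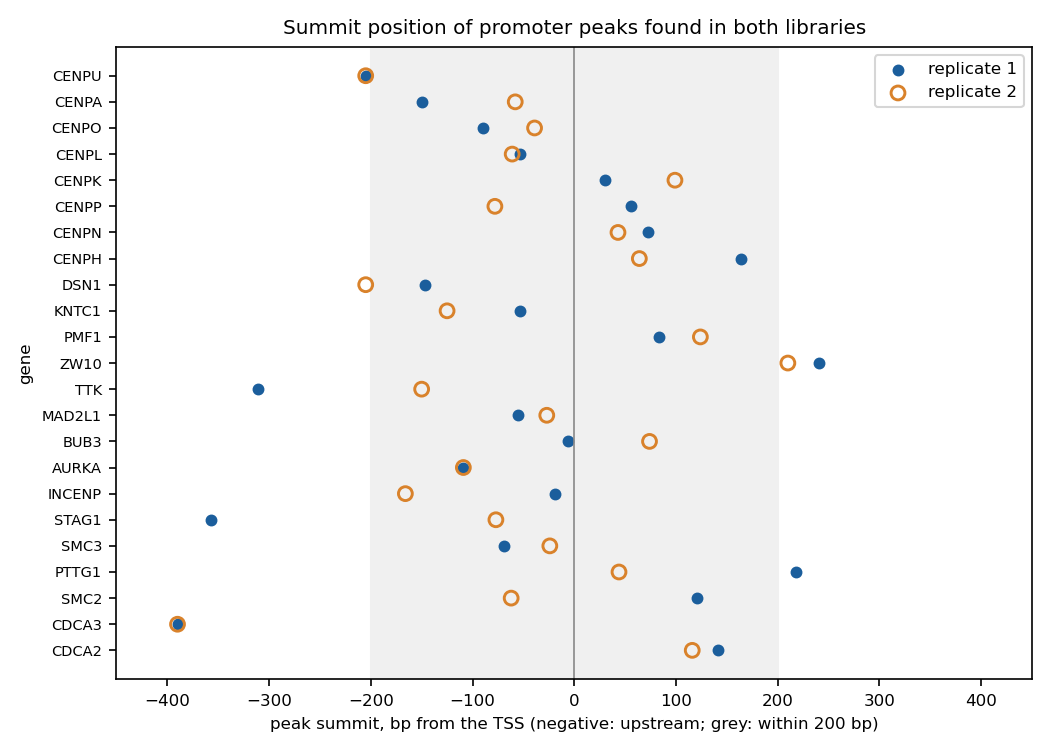
Position of the peak summit (x axis, bp from the TSS assigned in replicate 1, negative upstream) for the 23 bound genes (y axis, by role), with filled points for replicate 1 and open circles for replicate 2. Most summits lie within 200 bp of the TSS (grey), CDCA3 lies 390 bp upstream in both libraries, and ZW10 lies 241 and 210 bp downstream.

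Peak heights in the libraries can be set side by side for the same genes. The median fold of the 23 bound genes was 6.96 in replicate 1 (4.998 to 11.7) and 6.34 in replicate 2 (3.61 to 11.2), beside medians of 5.85 and 5.45 over all bound genes. Fold was higher in replicate 1 at 16 of the 23 genes, and at 63.0% of all bound genes. Across the 23 genes the folds had a Pearson r of 0.73 and a Spearman rho of 0.70 (0.65 and 0.59 over all bound genes), and 0.56 and 0.63 over the 21 genes other than CDCA2 and CDCA3. The points share the same 2 libraries, so these values are descriptions.

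**Figure D4:**
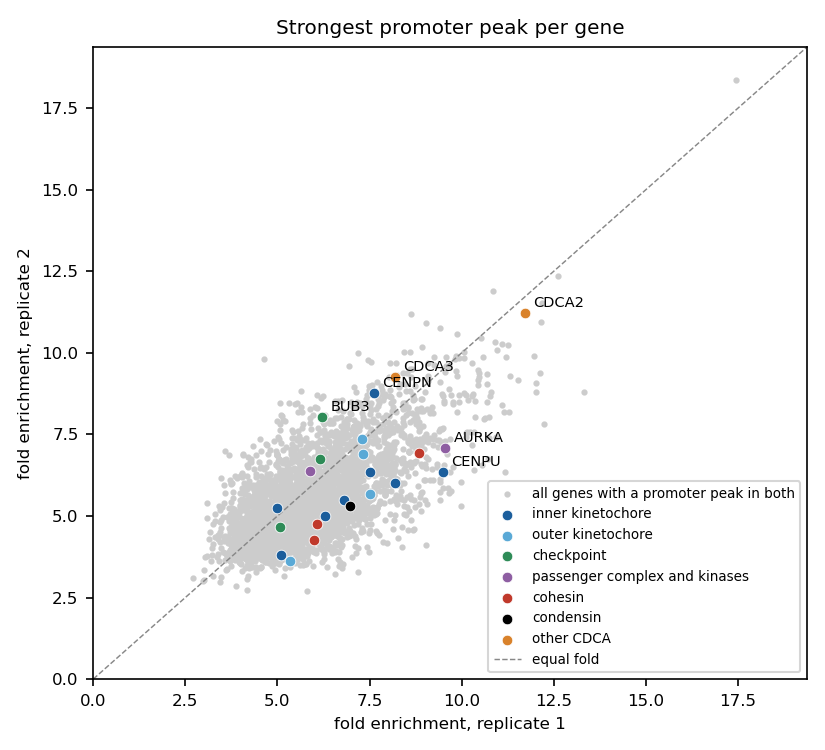
Fold enrichment of the strongest promoter peak in replicate 1 (x axis) and replicate 2 (y axis), with grey points for the 3438 bound protein-coding genes, coloured points for the 23 bound genes described here by role, and a dashed line at equal fold. CDCA2 stands near the upper end of all genes at 11.7 and 11.2, and AURKA and CENPU lie below the line.

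For each gene bound in both libraries, the division of its summit fragments was tested, against the share of 55.2% in replicate 1 that the relative depth gives. By a two-sided exact binomial test with Benjamini-Hochberg adjustment, 0 of 3819 genes (0%) passed the threshold of 0.05, and 0 of the 23 described here. Without adjustment 48 of all genes (1.26%) and 0 of the 23 had p below 0.05. AURKA came nearest among the 23, with 67.8% of its fragments in replicate 1 (exact 95% interval 54.4 to 79.4, unadjusted exact p = 0.066, adjusted exact p = 1). A gene has to pass in both lists to enter, which narrows the spread, so the test does not show that the libraries are alike.

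**Figure D5:**
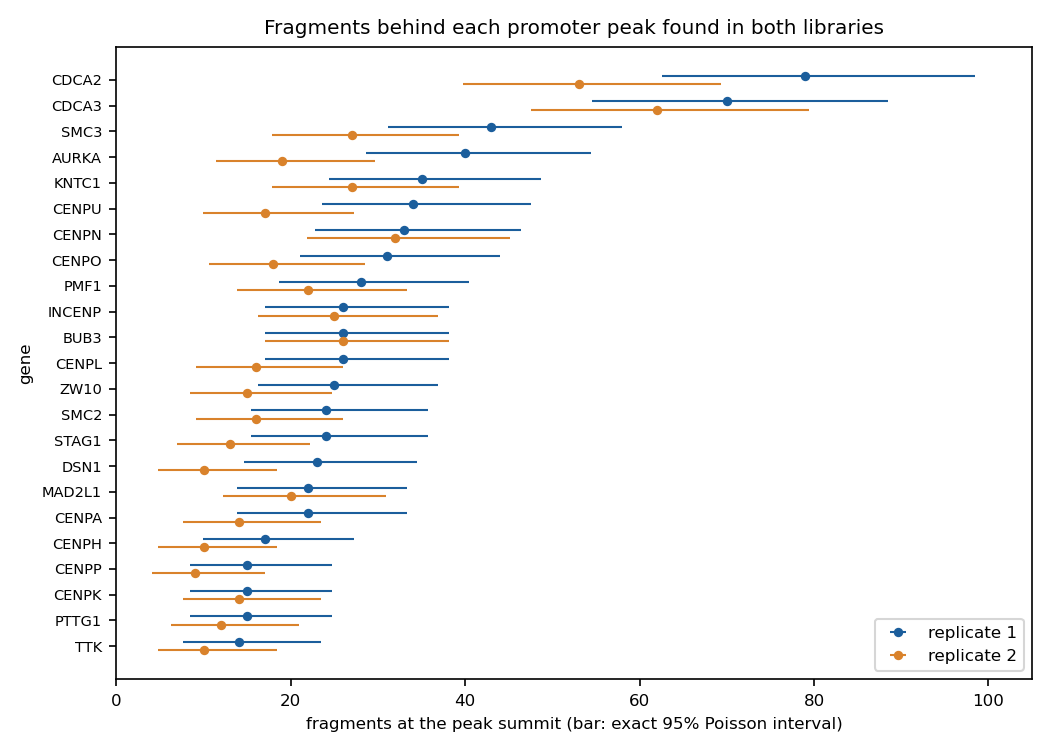
Fragments at the summit of the strongest promoter peak (x axis, count) for the 23 bound genes (y axis), with exact 95% Poisson intervals as bars, blue for replicate 1 and orange for replicate 2. The intervals of CDCA2 (62.5 to 98.5) and SMC3 (31.1 to 57.9) in replicate 1 do not overlap, while those of neighbouring genes do.

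Whether a member was found in both libraries went with the number of fragments. In replicate 1 the median number of summit fragments was 26 at the bound genes (14 to 79), and 13 at the 12 genes found there only (9 to 23). Over all genes the same medians were 22 at the 3438 bound genes and 15 at the 1974 found in replicate 1 only. Of 21 members with at least 22 fragments in replicate 1, 18 were bound, against 87.4% of 2049 genes of that height. The 3 that were not were CENPF, MAD1L1 and SMC1A. Of 14 members with fewer fragments, 5 were bound, against 49.0% of 3363 genes. For the peaks that rest on 9 to 18 fragments, absence from the other library means that none was detected at this depth.

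The wider pathway, a list of 58 other genes of the kinetochore, cohesion, chromosome structure and the anaphase-promoting complex, had 18 bound (31.0%), beside 20.8% of all genes. A further 10 had a promoter peak in replicate 1 only and 3 in replicate 2 only, beside 1974 and 676 of all 16491 genes. Among the 18, SGO2 had peaks at different starts that did not overlap, with summits 13974 bp apart. With 1 bp of overlap required, 17 of the 58 (29.3%) were bound, beside 20.7% of all genes. Ranked by the lower of the 2 folds, the strongest were CDC27 (8.87 and 7.11), a subunit of the anaphase-promoting complex, ANAPC15 (8.15 and 6.98), of the same complex, and BORA (7.37 and 6.87), an activator of AURKA. They were followed by SKA2 (8.20 and 6.79), of the outer kinetochore, CTCF (8.45 and 6.64), at whose sites cohesin accumulates, and CDC16 (6.63 and 8.25), again of the anaphase-promoting complex. Of the 14 listed subunits of that complex, which triggers anaphase by ubiquitin ligation, 7 were bound, a count made after the values were seen.

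Of the 4 cohesin subunits of meiosis in that list, SMC1B, REC8, RAD21L1 and STAG3, none was bound, beside 20.8% of all genes. The count was also made after the values were seen, and 4 genes are too few to set apart from that share. SMC1B had an intronic peak in replicate 1 (4.98-fold, 11 fragments), and RAD21L1 a replicate 1 peak 2565 bp upstream of its TSS (3.58-fold, 8 fragments). REC8 and STAG3 had no assigned peak, but a peak of GPC2 overlapped an end of STAG3 in both libraries (3.43 and 5.18).

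None of 12 marker genes of spermatogonia, Sertoli, Leydig and peritubular cells had a promoter peak in both libraries, beside 20.8% of all genes. UCHL1 had one in replicate 1 and KIT one in replicate 2. Binding of a factor is not expression, so these lists do not show which cells were present.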

How the data were processed

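The authors deposited 1 peak list per library, with peaks called separately. Per the submitters' processing notes, positions are on Sscrofa11.1. No aligner, caller or annotation tool is named in the labels or headers. Per the file headers, each peak has a score that was not used, a fold enrichment (a linear ratio), the −log10 of its p-value and of its q-value, a class and 1 assigned gene. The lists held 10273 and 7301 peaks.

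The sources used here state no library depth. Whole summit fragments were recovered by solving (fragments + 1)/(background + 1) for the fold together with a Poisson tail for the −log10 p (relative tolerance 1e-05) for 99.9% of peaks in both lists. The lowest background (1.21 and 0.979 fragments) gave a relative depth of 1.23. These steps were tested on simulated data. The strongest promoter peak per gene was used. Gene positions came from the RefSeq table of the same build, which has no strand, so the alternative that asked for peaks near a gene start used either gene end. Genes were named as bound, found in one library, or without a peak, plus the 6 other genes with the highest lower fold of the 2 lists. The members and lists were chosen with earlier results of these data known. Tests ran in scipy 1.17.1 with numpy 2.4.6, tables in pandas 2.3.3 and figures in matplotlib 3.10.9, all under Python 3.11.15.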

Additional observations from a re-analysis of the deposited data

How the results depend on the processing

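The count of 23 bound genes was 24 with any assigned peak or with 5′ UTR peaks added (NIPBL joined), 23 with promoters of 1 kb, with equal list lengths or with 1 bp of overlap, 21 (36.8%, all genes 17.6%) with overlap by 50% of each peak (without CENPK and DSN1), 17 (29.8%, all genes 11.6%) with peaks above the median fold, and 31 by peaks within 1 kb of a gene end. With any assigned peak the share of all genes was 28.2%, with 5′ UTR peaks 24.0%, and under the settings that left 23 it was 19.2 to 20.7%. By single libraries it went from 24 to 35. The larger number came without replicate 2, where the counts went from 4 to 9 for the outer kinetochore, 3 to 5 for the checkpoint, 1 to 2 for condensin and 21 to 28 for the 58 other genes. Peaks within 1 kb of a gene end gave 4 of the passenger complex and kinases, 5 of cohesin and 3 of condensin. Peaks above the median fold left cohesin with 1. With ZW10 and KNTC1 counted as checkpoint genes, an alternative chosen after seeing the data, the outer kinetochore had 2 and the checkpoint 5. With the relative depth taken from summed fragments (1.32) instead, the fragment test called 0 of the 23 bound genes. Most of these peaks rest on 9 to 40 fragments, which limits what a single gene can show. No paired analysis was possible because there was 1 group.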

Other observations

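Outside promoters, a few genes of the wider pathway had peaks in both libraries. KIF2C is a kinesin that depolymerises microtubules at centromeres. It had a peak in each library 11.6 and 11.7 kb upstream of its TSS, outside the gene. The authors classed these peaks as 3′ UTR, and their folds were 4.28 and 5.58 from 19 and 21 fragments. CENPM, a subunit of the inner kinetochore, also had a 3′ UTR peak in both (4.57 and 5.16, from 11 and 14 fragments), beside a promoter peak in replicate 1 only (5.91-fold). WAPL, which releases cohesin from chromatin, had a distal peak 10.4 and 10.3 kb upstream (4.62 and 4.18, from 12 and 9 fragments) besides its promoter peak (7.49 and 5.47). ESCO1, an acetyltransferase of cohesin, had a 5′ UTR peak in both libraries.

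None of the 3 members on the X chromosome, CENPI, SMC1A and STAG2, was bound, that is, had an assigned promoter peak in each of the libraries. Of 609 protein-coding genes on the X chromosome 48 (7.88%) were bound.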
